A study of Mus musculus with 12 samples.

Results

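A set of 10 sensory receptor and channel genes was followed across cultures of mouse trigeminal ganglion (TG) neurons, which serve sensation in the head. They were chosen by symbol, as P2rx2, P2rx3, P2rx4, Piezo1, Piezo2, Asic1, Asic3, Mrgprd, Mrgpra3 and Mrgprx1, and all 10 were measured among 19505 gene symbols on the array. Each of the 10 had 1 probe. Primary TG neurons on laminin-coated coverslips were transfected with miR-21 (3 arrays), miR-34a (3 arrays), miR-324 (3 arrays) or scramble miRNAs (3 arrays), and total RNA was hybridised to Clariom S Mouse arrays. The labels give no strain, age, sex, dose or time after transfection. Whether replicate arrays stem from different animals or dishes is not stated either, and the spread behind each p-value may therefore be technical. The study's design compares each miRNA with scramble.

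The listed genes encode proteins with which sensory nerve endings detect ATP, acid, force and itch-inducing compounds. P2X receptors are ion channels opened by extracellular ATP, and P2rx2 and P2rx3 subunits can assemble into a mixed channel in nociceptors. ASIC channels open when the medium turns acidic. Piezo proteins are channels opened by stretch of the membrane, and Piezo2 is the main channel of light touch in mouse sensory neurons. Mrgpr receptors mark classes of small-diameter neurons in the mouse: Mrgprd the non-peptidergic fibres of the skin, and Mrgpra3 and Mrgprx1 neurons that respond to pruritogens.

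The transfected miRNAs are shown because they define the groups. The sequences are the RefSeq mature forms (GRCm38.p6), with the seed, bases 2 to 8, in capitals; no seed is shared. The labels do not say which arm was used, so both arms are given for miR-324.
mmu-miR-21a-5p: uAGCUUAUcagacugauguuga
mmu-miR-34a-5p: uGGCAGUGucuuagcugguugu
mmu-miR-324-5p: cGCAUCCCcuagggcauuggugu
mmu-miR-324-3p: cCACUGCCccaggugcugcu

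The arrays differed in their cell type marker signals within groups as well as between them. Scramble 1 and 2 and miR-34a 1 and 2 share a label suffix (A), scramble 3 and miR-324 2 share another (B), and the other 6 arrays have none. The labels do not say what the suffix stands for. All 23 measured pan-neuronal markers stood above the array floor on every array, the floor being the 95th percentile of 1414 olfactory and vomeronasal receptor probes (4.87 to 5.80). On a log2 scale their summed signal spanned 16.94 to 17.55 in miR-21, 15.52 to 18.92 in miR-34a, 15.58 to 17.82 in miR-324 and 18.21 to 19.08 in scramble, and it was lowest on miR-34a 3 and miR-324 1. Of 16 macrophage markers 15 or 16 were above the floor on the suffix A arrays and 4 to 11 on the others. Their summed signal was 11.03 to 11.58 in miR-21, 9.68 to 14.78 in miR-34a, 9.60 to 9.86 in miR-324 and 10.33 to 14.92 in scramble. Prolactin (Prl), a pituitary hormone, read 14.26 to 15.17 on the miR-324 arrays and scramble 3 and 3.37 to 4.83 on the other 8. Fewer neurons and less RNA per neuron cannot be told apart in such cultures.

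Values are log2 signals after robust multi-array averaging (RMA), and a difference of 1 is a 2-fold difference. Levels of different genes are not compared, since each probe binds with its own strength. P2rx3, Piezo2 and Asic1 lay above the floor on all 12 arrays, Piezo1 on 11, Asic3 on 10, Mrgprx1 on 9, P2rx4 on 8 and Mrgprd on 7. P2rx2 and Mrgpra3 lay below the floor on every array, so their differences are given without a fold change.

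**Figure D1:**
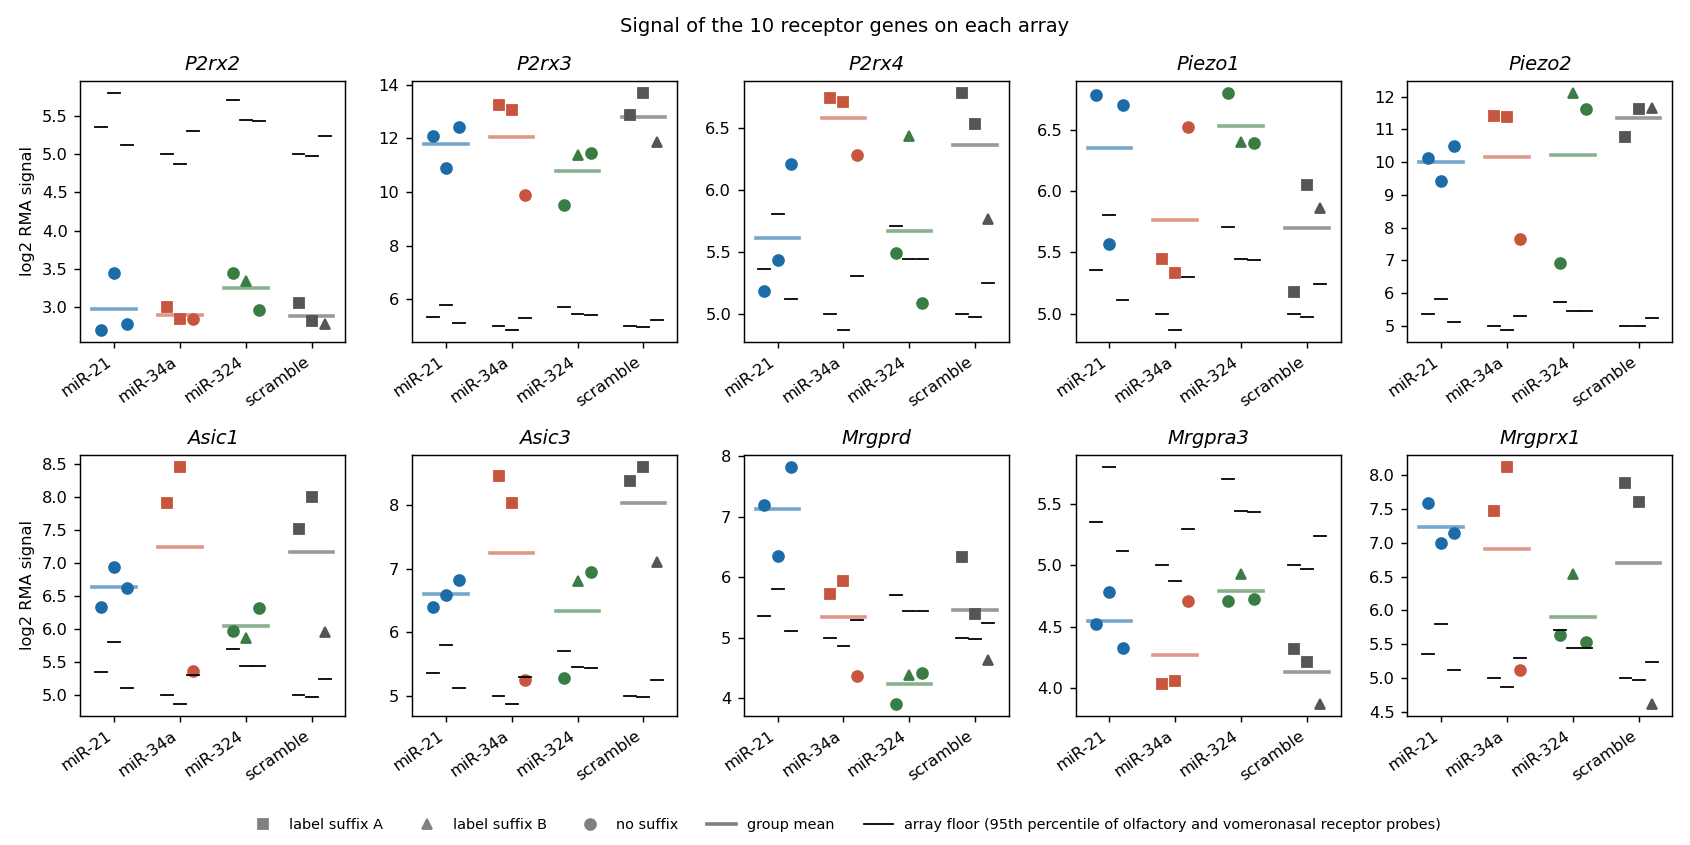
Log2 RMA signal (vertical axis, a separate scale per panel) of each receptor gene on the 12 arrays, by group. Points are arrays, shaped by label suffix, coloured bars are group means and short black lines are each array's floor; the 3 miR-21 arrays have the highest Mrgprd signals, while P2rx3, Piezo2 and Asic3 are lowest on miR-34a 3 and miR-324 1.

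Among the ATP receptors, P2rx3, the subunit typical of nociceptors, was clearly measured in every culture. It read 12.10, 10.89 and 12.42 on miR-21 1, 2 and 3, and 13.23, 13.05 and 9.90 on miR-34a 1, 2 and 3. It read 9.52, 11.38 and 11.44 on miR-324 1, 2 and 4, against 12.88, 13.69 and 11.85 on scramble 1, 2 and 3. The miR-324 arrays all lay below the scramble arrays, whereas miR-21 and miR-34a overlapped with scramble. The difference from scramble was −2.03 ± 0.84 (SE) for miR-324 (limma adjusted p = 0.32), −1.003 ± 0.84 for miR-21 (adjusted p = 0.57) and −0.75 ± 0.84 for miR-34a (adjusted p = 1.00). The 95% interval for miR-324 ran from −3.85 to −0.20, but the gene did not pass the adjusted threshold. The 2 lowest P2rx3 signals were on miR-34a 3 and miR-324 1, the arrays with the lowest pan-neuronal signal. With the pan-neuronal mean as a covariate the miR-324 difference was −0.52 (adjusted p = 0.80) and that of miR-21 0.39 (adjusted p = 0.71).

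P2rx4, an ATP receptor known from macrophages and microglia as well as neurons, lay close to the floor. Its signals were 5.18, 5.43 and 6.21 on the miR-21 arrays, 6.74, 6.71 and 6.28 on miR-34a, 5.49, 6.43 and 5.09 on miR-324, and 6.78, 6.53 and 5.76 on scramble. The highest values were those of the suffix A arrays, which also had the highest macrophage marker signal; whether the markers account for them was not tested. No comparison with scramble passed (differences −0.75 for miR-21, 0.22 for miR-34a and −0.69 for miR-324; adjusted p = 0.35, 1.00 and 0.41). P2rx2 read 2.70 to 3.44 in miR-21, 2.84 to 3.00 in miR-34a, 2.96 to 3.44 in miR-324 and 2.77 to 3.05 in scramble, all below the floor.

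Of the acid-sensing channels, Asic3, found mainly in sensory neurons, was lowest on the same 2 arrays as P2rx3. It stood at 6.39, 6.58 and 6.82 on the miR-21 arrays and 8.46, 8.03 and 5.25 on miR-34a 1, 2 and 3. It stood at 5.27, 6.80 and 6.94 on miR-324 1, 2 and 4, against 8.38, 8.60 and 7.11 in scramble 1, 2 and 3. All miR-21 and all miR-324 arrays lay below the lowest scramble array, and miR-34a 1 and 2 lay within the scramble range. The difference was −1.43 ± 0.73 for miR-21 (adjusted p = 0.34), −1.69 ± 0.73 for miR-324 (adjusted p = 0.33) and −0.78 ± 0.73 for miR-34a (adjusted p = 1.00). With the pan-neuronal mean as a covariate these were −0.19, −0.35 and 0.01, none past the threshold (adjusted p = 0.82, 0.82 and 1.00).

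Asic1, a more widely distributed neuronal channel, read 6.34, 6.94 and 6.62 on the miR-21 arrays. The miR-34a arrays read 7.90, 8.45 and 5.37, the miR-324 arrays 5.97, 5.86 and 6.32, and scramble 7.52, 8.00 and 5.96. The 4 suffix A arrays were the 4 highest, in both groups that hold them, and scramble 3 lay among the miR-324 values. The differences from scramble were −0.53, 0.08 and −1.11 for miR-21, miR-34a and miR-324 (adjusted p = 0.73, 1.00 and 0.44). Between miRNAs, Asic1 was 1.19 ± 0.68 higher after miR-34a than after miR-324 (adjusted p = 0.47). Without miR-34a 3 this was 2.13 and passed (adjusted p = 0.041), in a fit that called 801 of 19572 genes, against 0 with that array; the remaining miR-34a arrays are both of suffix A and no miR-324 array is.

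The touch channel Piezo2 showed the widest spread. It read 10.14, 9.42 and 10.48 on the miR-21 arrays, 11.41, 11.39 and 7.65 on miR-34a, 6.93, 12.12 and 11.64 on miR-324, and 10.76, 11.63 and 11.65 in scramble. Only miR-34a 3 and miR-324 1 fell outside 9.42 to 12.12. The miR-21 arrays, at 9.42 to 10.48, all lay below the lowest scramble array (10.76). The differences were −1.33, −1.20 and −1.12 for miR-21, miR-34a and miR-324, each with an SE of 1.22 and none past the threshold (adjusted p = 0.61, 1.00 and 0.67). Intervals as wide as −3.77 to 1.54, for miR-324, leave changes of several-fold undetectable here.

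Piezo1, a stretch channel best known from endothelial and other non-neuronal cells, moved differently. It read 6.78, 5.57 and 6.70 on the miR-21 arrays, 5.45, 5.33 and 6.52 on miR-34a, 6.80, 6.40 and 6.39 on miR-324, and 5.18, 6.05 and 5.86 in scramble. Like P2rx4 it lay close to the floor, and miR-21 2 was below it. The miR-324 arrays lay above all scramble arrays, by 0.83 ± 0.39 in the mean (adjusted p = 0.35), and the miR-21 difference was 0.65 ± 0.39 (adjusted p = 0.42). All 13 endothelial markers were above the floor on the miR-324 and scramble arrays, with a summed signal of 15.69 to 16.34 in miR-21, 15.72 to 18.64 in miR-34a, 17.33 to 19.39 in miR-324 and 15.42 to 16.97 in scramble. miR-21 1 and 3 reached Piezo1 signals close to those of miR-324 1 without a high endothelial signal. Within miR-34a, Piezo1 was highest on miR-34a 3 (6.52 against 5.45 and 5.33). The endothelial summed signal of that array was 18.64, against 15.99 and 15.72 on miR-34a 1 and 2. The part of endothelial cells in the miR-324 difference was not tested.

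In the fit of all 12 arrays without a block or covariate, Mrgprd was the one listed gene that passed in any comparison. Mrgprd encodes the receptor of non-peptidergic skin afferents. It read 7.20, 6.35 and 7.82 on miR-21 1, 2 and 3, and 5.73, 5.94 and 4.37 on miR-34a 1, 2 and 3. It read 3.91, 4.38 and 4.42 on miR-324 1, 2 and 4, against 6.34, 5.40 and 4.63 on scramble 1, 2 and 3. Every miR-21 array exceeded every other array, miR-21 2 by only 0.01 over scramble 1, and the 3 miR-324 arrays were below the floor and below all scramble arrays.

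Against scramble, Mrgprd was 1.67 ± 0.51 higher after miR-21 (adjusted p = 0.13) and differed by −1.22 ± 0.51 after miR-324 (adjusted p = 0.32), neither past the threshold. Since all miR-324 arrays were below the floor, and the floor there was as high as the scramble mean, no fold difference from scramble can be given. After miR-34a the difference was −0.11 ± 0.51 (adjusted p = 1.00). Between miRNAs, Mrgprd was lower after miR-324 than after miR-21, by −2.89 ± 0.51 (4.24 ± 0.28 against 7.12 ± 0.74, SD, n = 3; limma adjusted p = 0.013). The miR-21 mean was 3.02-fold above the mean floor of the miR-324 arrays, a value that makes no allowance for the spread between arrays. This call held in 3 of 6 fits that left out 1 array and was lost without miR-21 1 (−2.85, adjusted p = 0.068), miR-21 3 (−2.54, adjusted p = 0.065) or miR-324 4 (−2.98, adjusted p = 0.051). It was the only call among the 10 genes in this comparison, in which 2.46% of all genes passed (481, and 86 to 402 without 1 array each, the fewest without miR-21 1), and 1 of 10 had an unadjusted p under 0.05, against 14.7% of all. Asic1, Mrgprd and Mrgprx1 were lower after miR-324 without overlap, 3 of 10, against 13% of all genes lower and 21.4% in either direction. The miR-34a difference from miR-21 was −1.78 ± 0.51 and did not pass (adjusted p = 0.22; 0 of 10 genes, against 0.158% of all genes). In that comparison Mrgprd and P2rx4 had an unadjusted p under 0.05 (2 of 10, against 11.3% of all). Mrgprd lay below and P2rx4 above the miR-21 arrays without overlap (2 of 10, against 17% of all genes, 10.9% lower and 6.16% higher).

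Within the 6 arrays that carry no suffix, Mrgprd was lower on miR-324 1 and 4 than on the miR-21 arrays by −2.96 ± 0.42 (adjusted p = 0.0034; 2 of 10 genes called, against 4.41% of all genes), again with the miR-324 values below the floor. The lone miR-34a array there, miR-34a 3, read 4.37, also below its floor, and is given without a test. Neuronal marker lists differed between these groups in more than 1 way. The pan-neuronal list's mean was 10.05, 12.08 and 11.96 on miR-324 1, 2 and 4, against 11.29 to 11.79 on the miR-21 arrays. The sensory neuron list, with a mean of 7.26 to 8.67 in miR-324 against 8.83 to 9.16 in miR-21, was lower without overlap, as Mrgprd was. So were the genes of itch and small nociceptor classes, at 6.89 to 7.30 in miR-324 against 7.56 to 8.02 in miR-21, and their summed log2 signal was 12.91 to 13.54 against 15.02 to 15.68. On the suffix A arrays of scramble and miR-34a both lists had higher means than in miR-21, at 10.25 to 10.53 and 8.03 to 8.27. Mrgprd read 5.40 to 6.34 on those arrays, below all miR-21 arrays. Myelinating Schwann cell markers had a mean of 9.45 to 9.56 on the miR-21 arrays, 7.85 to 9.51 in miR-34a, 7.83 to 8.64 in miR-324 and 7.54 to 7.99 in scramble. On miR-34a 3, where that mean was 9.51, Mrgprd read 4.37. Between 7 and 9 of the 11 Schwann markers were above the floor on each array, and their summed signal was 17.08 to 17.46 in miR-21, 16.57 to 16.74 in miR-34a, 14.99 to 15.47 in miR-324 and 15.21 to 16.74 in scramble. Mural cell markers also had their highest summed signal in miR-21, at 17.37 to 17.40. It was 15.13 to 16.30 in miR-34a, 12.02 to 16.59 in miR-324 and 11.84 to 15.42 in scramble. Outside miR-21 it was highest on miR-324 1 and miR-34a 3 (16.59 and 16.30), where Mrgprd read 3.91 and 4.37. Single markers that rose after miR-21 against scramble were the myelin genes Cldn19 and Mbp (2.88 and 3.90; adjusted p = 0.017 and 0.046), the collagens Col5a2 and Col1a2 of the fibroblast list (3.33 and 4.45; adjusted p = 0.016 and 0.029) and the pericyte proteoglycan Cspg4 (2.65, adjusted p = 0.029). The fibroblast list as a whole was split, with 7 of 15 markers higher in the mean and 8 lower (median −0.04). Of 12 mural markers 7 were higher and 5 lower, while all 11 Schwann markers were higher. The part of these cell types in the Mrgprd difference was not tested.

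Mrgprx1, the mouse receptor also called MrgC11, read 7.59, 6.99 and 7.14 on the miR-21 arrays. It read 7.47, 8.12 and 5.12 on miR-34a 1, 2 and 3, 5.64, 6.54 and 5.54 on miR-324 1, 2 and 4, and 7.89, 7.60 and 4.62 on scramble 1, 2 and 3. The suffix A and miR-21 arrays were all at 6.99 or higher and the other 5 arrays at 6.54 or lower, so scramble and miR-34a were both split. The differences from scramble were 0.54, 0.20 and −0.80 for miR-21, miR-34a and miR-324, each with an SE of 0.84 (adjusted p = 0.77, 1.00 and 0.66). All miR-324 arrays lay below all miR-21 arrays (difference −1.33 ± 0.84, adjusted p = 0.52). Within the arrays without a suffix, Mrgprx1 was the other called gene, lower by −1.65 ± 0.30 on miR-324 1 and 4 than on the miR-21 arrays (adjusted p = 0.012), with miR-324 1 below its floor. On miR-34a 3 and scramble 3 it was below the floor as well. Mrgpra3, the receptor of chloroquine itch, read 4.33 to 4.78 in miR-21, 4.03 to 4.71 in miR-34a, 4.71 to 4.93 in miR-324 and 3.87 to 4.32 in scramble. These values are below the floor, and the largest difference from scramble was 0.66 ± 0.24 for miR-324 (adjusted p = 0.31). Mrgpr genes form a family of close paralogs, and how far their probes tell them apart was not tested.

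The upstream sequences of Mrgprd and Mrgprx1 are given because these 2 genes were called between miR-324 and miR-21 in at least 1 fit, and that of Asic3 because it holds a motif match. Runx1, a transcription factor needed for Mrgprd expression in mouse sensory neurons, stood at 12.18 to 12.36 in miR-21, 11.56 to 11.96 in miR-34a, 10.55 to 10.78 in miR-324 and 10.45 to 11.76 in scramble (miR-21 against scramble 1.00 ± 0.30, adjusted p = 0.13). The 250 bases before the start of 6 of the 10 genes (RefSeq, GRCm38.p6) were searched on both strands for the RUNX core TGTGGT, its variant TGCGGT and the homeodomain core TAATTA, which do not contain one another. Of all 32851 such windows 14% hold TGTGGT, 5.1% TGCGGT and 4.84% TAATTA. Asic3 held 1 TGTGGT, P2rx4 1 TGCGGT on the other strand, and Piezo1, Asic1, Mrgprd and Mrgprx1 none of the motifs. Capitals mark the match.
Mrgprd, chr7:145314585-145314834, plus strand: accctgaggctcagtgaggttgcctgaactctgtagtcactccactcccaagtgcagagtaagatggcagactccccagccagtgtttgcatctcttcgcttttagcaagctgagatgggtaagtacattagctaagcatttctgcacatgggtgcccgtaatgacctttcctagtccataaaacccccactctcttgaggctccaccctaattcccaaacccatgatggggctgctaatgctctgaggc
Mrgprx1, chr7:48027598-48027847, minus strand: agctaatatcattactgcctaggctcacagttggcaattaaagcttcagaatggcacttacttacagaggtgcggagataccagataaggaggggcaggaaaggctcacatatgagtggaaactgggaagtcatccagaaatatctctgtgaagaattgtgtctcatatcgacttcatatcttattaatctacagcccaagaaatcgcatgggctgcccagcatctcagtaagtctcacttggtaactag
Asic3, chr5:24413201-24413450, plus strand: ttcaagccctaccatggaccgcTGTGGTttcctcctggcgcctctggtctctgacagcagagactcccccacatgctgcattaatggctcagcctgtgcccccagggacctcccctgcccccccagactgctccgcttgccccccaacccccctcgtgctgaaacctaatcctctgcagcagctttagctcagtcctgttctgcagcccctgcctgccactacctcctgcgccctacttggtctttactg

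**Figure D2:**
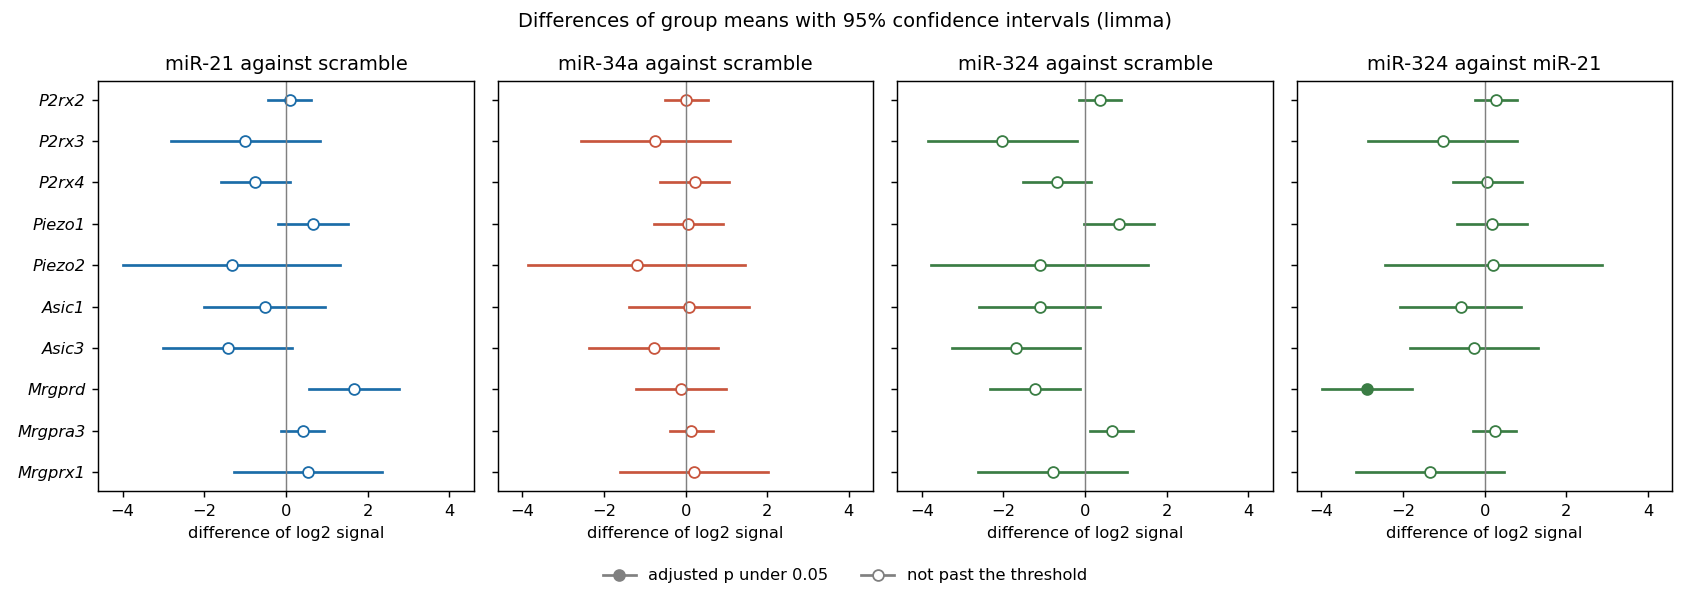
Differences of log2 signal (horizontal axis) for the 10 genes in 4 comparisons, with 95% confidence intervals from limma; filled points passed an adjusted p of 0.05. Mrgprd after miR-324 against miR-21 is the only filled point, and the Piezo2 intervals are the widest.

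Taking the 10 genes in each comparison with scramble, none passed the threshold in limma. After miR-21, 0 of 10 were called, against 1.04% of all 19572 named probes, and 1 of 10 (Mrgprd) had an unadjusted p under 0.05, against 16.6% of all. Mrgprd and Mrgpra3 lay above and Piezo2 and Asic3 below the scramble arrays without overlap, 4 of 10 against 25.6% of all genes (16.9% higher and 8.75% lower). The median difference of the 10 genes was −0.22, with 5 of 10 lower in the mean, against 0.13 and 38.3% for all genes. After miR-34a, 0 of 10 were called (0% of all genes) and 0 of 10 had an unadjusted p under 0.05 (1.46% of all). No listed gene separated miR-34a from scramble, against 5.8% of all, and the median difference was 0.04, with 4 of 10 lower in the mean, against 0.04 and 44% for all genes. After miR-324, 0 of 10 were called (0% of all genes), and 4 of 10, P2rx3, Asic3, Mrgprd and Mrgpra3, had an unadjusted p under 0.05, against 14.7% of all. P2rx3, Asic3 and Mrgprd lay below and Piezo1 and Mrgpra3 above scramble without overlap, 5 of 10 against 19.9% of all genes (12.6% higher and 7.3% lower). The median difference was −0.95, with 7 of 10 lower in the mean, against 0.09 and 41.5% for all genes. Between miR-34a and miR-324, 0 of 10 were called (0% of all genes) and 2 of 10, P2rx4 and Mrgprd, had an unadjusted p under 0.05, against 13% of all. None of the 10 separated these groups without overlap, against 17.1% of all. The 3 comparisons with scramble share their scramble arrays.

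Arrays of a shared suffix gave smaller differences for most of these genes. Larger in size were those of P2rx2, Piezo1, Asic1 and Mrgpra3 in suffix A, and of P2rx2, Mrgpra3 and Mrgprx1 in suffix B. Among the suffix A arrays, the 2 miR-34a arrays differed from the 2 scramble arrays by −0.25 (Asic3) to 0.42 (Asic1), with P2rx3 at −0.15, Piezo2 at 0.21, Mrgprd at −0.04 and Mrgprx1 at 0.05 (limma adjusted p = 1.00 for each; 0% of all genes called, 762 of 19572 at an unadjusted p under 0.05). The −1.20 of Piezo2 and the −0.75 of P2rx3 over all miR-34a arrays were therefore not present between these 4. In suffix B, where 1 array stands on each side and nothing can be tested, miR-324 2 read 11.38 for P2rx3 against 11.85 on scramble 3, and 6.80 against 7.11 for Asic3. Mrgprx1 read 6.54 on miR-324 2 against 4.62 on scramble 3, opposite in sign to the difference over all miR-324 arrays. Piezo2 and P2rx4 were opposite in sign too (0.47 and 0.67 between these arrays, −1.12 and −0.69 over all).

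**Figure D3:**
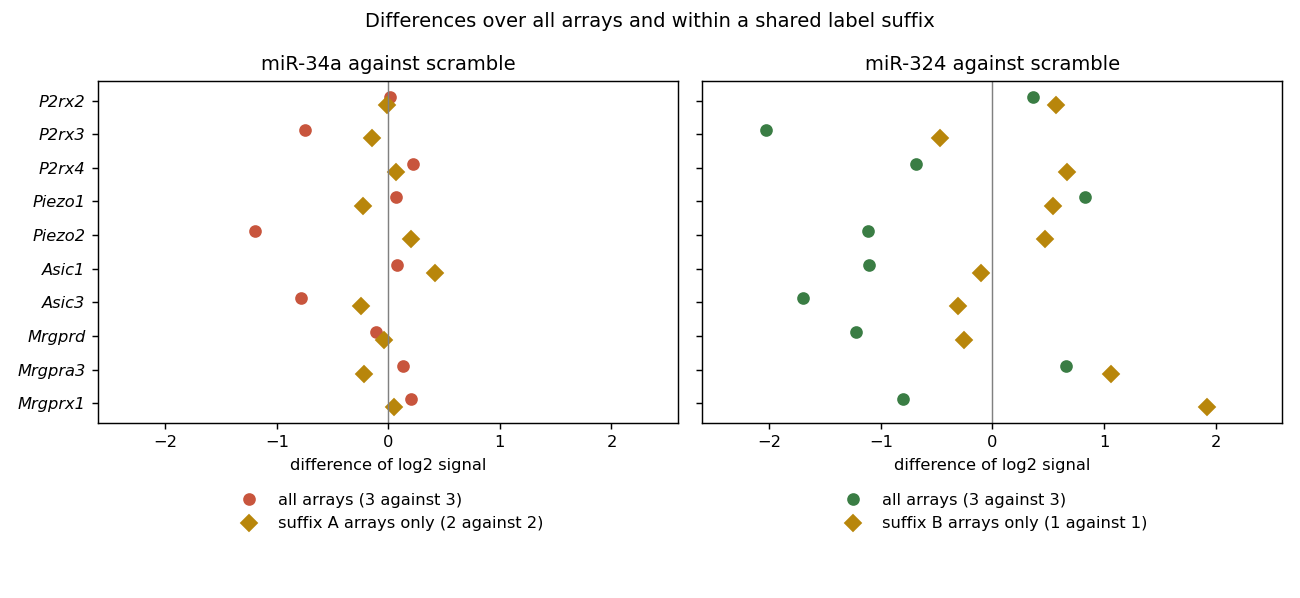
Differences of log2 signal (horizontal axis) of miR-34a and miR-324 from scramble for each gene, over all 3 arrays a group (circles) and over only the arrays that share a label suffix (diamonds; A with 2 against 2, B with 1 against 1). Within suffix A all differences lie between −0.25 and 0.42.

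The fit with the suffix as a fixed block gave other values for miR-21, whose arrays all lack a suffix and so are tied to scramble only through miR-34a 3 and miR-324 1 and 4. In that fit Mrgprd and Mrgprx1 were higher after miR-21 than after scramble (2.71 and 2.79; adjusted p = 0.0090 and 0.0023; 2 of 10, against 3.49% of all genes), and 6 of the 10 had the opposite sign without passing. These were Asic1, P2rx3, Piezo2 and Asic3 (1.11, 1.36, 1.96 and 0.69; adjusted p = 0.24, 0.45, 0.57 and 0.68), P2rx4 (0.10, adjusted p = 0.96) and Piezo1 (−0.09, adjusted p = 0.97). With the pan-neuronal mean as a covariate, Mrgprd alone was higher after miR-21 (2.27, adjusted p = 0.020; 1 of 10, against 1.94% of all). For miR-34a against miR-21 the fixed block called Mrgprd and Mrgprx1 (−2.75 and −2.43; 2 of 10, against 5.13% of all) and the covariate Mrgprd (−1.99; 1 of 10, against 1.57%). For miR-324 against miR-21 the same genes were called (−2.96 and −1.49; 2 of 10, against 6.92%) and Mrgprd with the covariate (−2.84; 1 of 10, against 6.35%). With the suffix as a random block Mrgprd differed from scramble after miR-21 by 2.13 and did not pass (adjusted p = 0.12), nor did it for miR-34a against miR-21 (−2.21, adjusted p = 0.091), while miR-324 against miR-21 passed (−2.92, adjusted p = 0.0035). Mrgprx1 passed in none of these with the random block (1.53, −1.26 and −1.40; adjusted p = 0.54, 0.58 and 0.31).

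**Figure D4:**
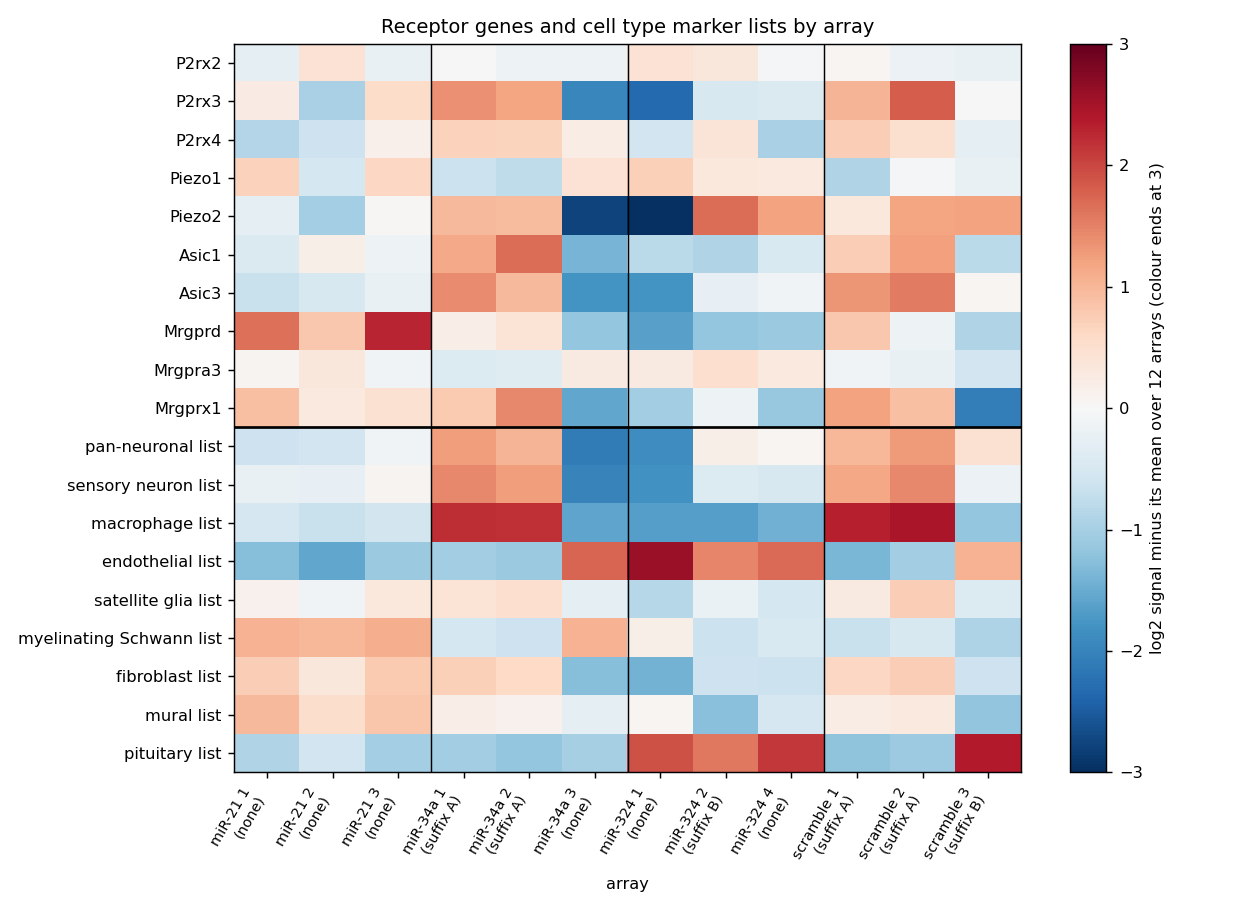
Each row is a receptor gene or, under the line, the mean of a cell type marker list, and each column an array; colour gives the log2 signal minus the row's mean over the 12 arrays. P2rx3, Asic3 and Piezo2 share their lowest columns, miR-34a 3 and miR-324 1, with the pan-neuronal list, while Mrgprd is highest in the 3 miR-21 columns.

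Other genes of these sensory pathways gave no call against scramble. Of 11 further P2X and P2Y receptors 0 passed in any of the 3 comparisons, with 3 at an unadjusted p under 0.05 after miR-21, 0 after miR-34a and 1 after miR-324. P2ry2, a receptor for ATP and UTP, read 11.73, 11.45 and 11.71 in miR-21 against 9.45, 9.73 and 8.87 in scramble (2.28 ± 0.55, adjusted p = 0.069). It was also at 11.43 on miR-34a 3 and 11.35 on miR-324 1. P2rx7, an ATP channel best known from immune cells and glia, read 13.31, 13.25 and 13.50 in miR-21 and 10.22, 9.96 and 14.15 in miR-34a. It read 12.84, 9.48 and 11.05 on miR-324 1, 2 and 4, against 10.43, 10.20 and 9.10 in scramble. The miR-21 arrays all lay above scramble (3.44 ± 1.00, adjusted p = 0.12), and of the miR-34a arrays miR-34a 3 alone did (1.53 ± 1.00, adjusted p = 1.00). So did miR-324 1 and 4 (1.21 ± 1.00 for all miR-324 arrays, adjusted p = 0.56). The arrays above scramble are those without a suffix. Entpd1 and Panx1, an ectonucleotidase and an ATP-permeable channel, led the 12 measured genes of ATP release and breakdown after miR-21 and miR-324 (−1.21 and −0.91; adjusted p = 0.23 and 0.32), again with 0 called.

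Among 10 other acid-sensing and proton-activated genes 0 passed. Gpr4, a proton-sensing receptor of endothelial cells, read 11.61, 10.64 and 10.75 after miR-324 against 7.90, 8.51 and 10.67 in scramble (1.97 ± 0.63, adjusted p = 0.31). Scramble 3, the scramble array with the highest endothelial signal, lay within the miR-324 range. Among 15 other genes of mechanosensation 0 passed. Stom, a membrane protein related to the ASIC regulator Stoml3, was closest after miR-21, with 8.45, 8.04 and 8.86 against 10.07, 10.05 and 9.66 in scramble (−1.48 ± 0.33, adjusted p = 0.056). Of 16 other Mrgpr genes, 9 of which were above the floor on at least 1 array, 0 passed. Mrgprg had the lowest p after miR-21 (0.73 ± 0.25, adjusted p = 0.17).

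Genes of the neuron classes that carry these receptors were not called either. Of 15 genes of itch and small nociceptor classes 10, 11 and 13 were lower in the mean after miR-21, miR-34a and miR-324, with medians of −0.12, −0.07 and −0.80. Over all genes 38.3%, 44% and 41.5% were lower in these comparisons. Of 14 touch and proprioceptor class genes 6, 9 and 11 were lower, with medians of 0.10, −0.21 and −0.14. Ntrk2, a neurotrophin receptor of touch neurons that glia also express, was highest in the miR-21 arrays (9.68 to 9.87) and lower in miR-324 (6.60 to 8.18) than in scramble (7.54 to 9.43), in the same order of groups as Mrgprd. Its differences from scramble were 1.16 and −1.23 for miR-21 and miR-324 (adjusted p = 0.31 and 0.33). The defining sensory neuron genes had a median difference of −0.75, −0.64 and −1.85 after miR-21, miR-34a and miR-324, with 14, 13 and 15 of 15 lower in the mean and 0 passed. Trpm8, the cold and menthol channel, led them after miR-324 (−2.34 ± 0.72, adjusted p = 0.31).

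The genes whose signals were most alike over the 12 arrays differed from one receptor to the next. These are Pearson correlations among 18463 other genes, given as a description, since the arrays share suffixes and patterns of cell type markers. Asic3 was closest to Napb, Ppp2r2b and Uchl1 (r = 0.993, 0.990 and 0.989), and P2rx3 to Acot7, Nrn1 and Prdx2 (0.992, 0.976 and 0.975). Piezo2 was closest to Igfbp5, Nefm and Irs2 (0.976, 0.969 and 0.965). Uchl1 and Nefm, a neuronal hydrolase and a neurofilament, are among the pan-neuronal markers listed here. Mrgprd was closest to Ptprz1, Ckb and Postn (0.972, 0.964 and 0.954), of which Ptprz1 is a satellite glia and Postn a fibroblast marker of the lists used. Mrgprx1 was closest to Ccnb2, Kif14 and Pclaf (0.945, 0.945 and 0.941), which act in cell division. Asic1 was closest to Ldb2, Sgpp2 and Pla2g15 (0.967, 0.965 and 0.964), Piezo1 to Ppp1r12a, Arf2 and Ep300 (0.952, 0.936 and 0.936), and P2rx4 to Lnpk, Kdsr and Mrps10 (0.928, 0.911 and 0.911). For P2rx2 and Mrgpra3, which lay below the floor, the leading genes were Olfr730, Tnfsf8 and Olfr843 (0.973, 0.914 and 0.905) and Papln, Jtb and Csn1s2b (0.932, 0.927 and 0.916).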

How the data were processed

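The 12 arrays carry log2 signals as the authors deposited them, and the submitters' processing notes name Transcriptome Analysis Console 4.0 and RMA; RMA equalises the arrays' distributions, so a change in total RNA is not seen, and values near the floor understate differences. The genome build is not given in the sources used here. Of 22206 probes 19572 had 1 gene symbol in the platform table, and 2634 were unnamed here. From the deposited log2 values, group means were fitted with limma 3.58.1 in R 4.3.3 over all 12 arrays (8 residual degrees of freedom), two-sided, with Benjamini-Hochberg adjustment over the 19572 probes. Adjusted p-values come from this model except where the text names a different one. The fit was tested on simulated data. There it called 16.4% of log2 changes of 1, 89.6% of those of 2 and 93.9% of those of 3. The simulated noise was independent between probes and arrays, without the suffix and cell type patterns that the real arrays share. These rates therefore do not tell how often a real change of such a size is called here. Groups follow the titles; scramble 3 is numbered 1 in its own label. The members and lists were chosen with earlier results of these data known. From each list, up to 4 genes past the threshold or the 1 with the smallest p were named, and 3 most alike genes per member. Adenosine receptors were not analysed here. Array data have no read depth, and the number of arrays limits precision. With scramble 3 taken as number 3, same-numbered arrays of different groups had correlated deviations above 0.1 in 4 of 15 pairs, and differently numbered arrays in 9 of 39.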

Additional observations from a re-analysis of the deposited data

Results flagged for a closer look

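Mrgprd differed between the miR-324 and miR-21 arrays when these were compared directly, by −2.89 on the log2 scale (adjusted p = 0.013 in limma), while neither group passed against scramble. The signals were 3.91, 4.38 and 4.42 on the miR-324 arrays and 7.20, 6.35 and 7.82 on the miR-21 arrays. Prl also differed on every array, at 14.26 to 15.17 in miR-324 against 3.37 to 3.98 in miR-21, as did endothelial markers, and transfected miRNA and culture content cannot be told apart here. Groups of 3 arrays were not tested for outliers.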

How the results depend on the processing

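No listed gene was called for miR-34a or miR-324 against scramble under any alternative run. The count of listed genes called after miR-21 against scramble was 0, and 2 when the label suffix was a fixed block and 1 with the pan-neuronal covariate. For miR-34a against miR-21 it was 0, and 2 and 1 in these fits. For miR-324 against miR-21 it was 1, 0 with only probes brighter than the median probe (where Mrgprd is not tested), 2 with only the 2 groups compared and 2 with the fixed block; without 1 array each it was 0 to 1. For miR-34a against miR-324 it was 0, and 0 to 1 without 1 array each (801 of all genes without miR-34a 3). The count of all genes after miR-21 against scramble was 204, 306 with brighter probes, 906 with only the 2 groups, 129 with the replicate block, 684 with the fixed suffix block, 34 with the random block and 379 with the covariate, and 11 to 81 without 1 array each; the cause was not tested. For miR-324 against scramble it was 0, and 0 to 383 without 1 array each, the 383 without scramble 3, of which 0 are listed genes. The labels do not say whether same-numbered arrays are paired, and the correlations of their deviations do not settle it. The replicate block changed no call of a listed gene. Of 920 differences under alternatives 12 gained and 3 lost the threshold, and 107 that passed in neither fit changed sign. Depth does not apply to arrays. Signals near the floor limit P2rx2, Mrgpra3, P2rx4, Piezo1 and Mrgprd, and on some arrays Asic1, Asic3 and Mrgprx1.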
